A study of Homo sapiens with 8 samples.

Results

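The gene set described here is the machinery of mitosis and of the spindle: 44 genes listed by name for their known role in cell division. Of these, 43 were measured, out of 18404 genes in all. A gene counted as measured where at least 1 probe set carried its symbol and no other, and the probe set with the highest mean over the 8 arrays stood for it. CENPA, the centromere histone, was listed but not measured by this rule, because its probe set also carries the symbol SLC35F6. The study hybridised total RNA of COLO829 cells, an established line from a cutaneous melanoma with an activating BRAF mutation, to Affymetrix Human Gene 1.0 ST arrays. Cells were infected with a pGIPZ vector carrying either a hairpin against MITF, the master regulator of the melanocyte lineage, or a scrambled hairpin, and were selected with puromycin for 2 days. They then received 1 µM PLX4032, an inhibitor of mutant BRAF also known as vemurafenib, or its solvent DMSO for 24 h before RNA was harvested. Crossing hairpin and drug gave 4 groups of 2 arrays, lettered A and B, which are called scrambled DMSO, scrambled PLX4032, hairpin DMSO and hairpin PLX4032 cells. All 4 groups had therefore been infected and selected. One MITF hairpin construct is named, so effects of the hairpin on other transcripts cannot be told apart from those of MITF loss. The labels do not say whether arrays A and B came from separate cultures, so the p-values rest on the spread between these arrays alone, and that spread may be technical.

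Markers of the labelled cell type and of others were read by gene and as means over lists. Levels of different genes come from different probe sets, so they do not measure relative abundance. Over the 4 group means, the melanocytic markers SOX10 and PMEL lay at 10.40 to 11.04 and 11.80 to 12.73, while MLANA ran from 4.40 in hairpin DMSO cells to 8.47 in scrambled PLX4032 cells, and TYRP1 from 5.58 to 10.21 in the same groups. The leukocyte marker PTPRC did not exceed 3.44 and the fibroblast marker DCN did not exceed 3.76 in any group mean, whereas CD68 and LUM of those lists lay at 10.49 to 10.95 and 9.37 to 9.81. The mean over 6 leukocyte markers lay between 5.22 and 5.46 on the 8 arrays, over 6 fibroblast markers between 5.69 and 5.88, and over 6 keratinocyte markers between 4.83 and 5.03. MITF read 10.44 and 10.46 in scrambled DMSO cells, 9.57 and 9.47 in hairpin DMSO cells, 10.88 and 10.80 in scrambled PLX4032 cells and 10.07 and 10.08 in hairpin PLX4032 cells. Both hairpin groups lay below their scrambled counterparts without overlap. The fall was -0.93 ± 0.080 (log2, SE, n = 2 arrays a group) in DMSO and -0.76 ± 0.080 in PLX4032, with limma's adjusted p at 8.28e-06 and 3.02e-05. Across all genes, arrays of the same group correlated at 0.997 to 0.998, and arrays of different groups at 0.963 to 0.984.

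Dividing cells raise the mitotic genes together in the G2 phase and in mitosis, and cells that stop cycling silence them. Cyclin B with CDK1 drives entry into mitosis, the checkpoint proteins hold anaphase until every kinetochore is attached, and the anaphase-promoting complex with CDC20 then marks securin and cyclin B for destruction. Many of these promoters are known to carry CCAAT boxes bound by NF-Y and a short element named CHR (cell cycle genes homology region), through which the DREAM and MuvB complexes silence or activate them. BRAF signalling drives proliferation in melanoma cells of this genotype, and MITF is known to influence their cycling.

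Promoters were examined because the members moved together. Of the 43 measured genes, 37 had an entry in RefSeq's table of promoters for GRCh38.p14, and the 250 bases before the annotated start were read. AURKB, CDK1, PTTG1, SMC2 and SMC4 had several windows there. A gene counted as holding letters if any of its windows did, and a site shared by its windows was counted once, at its position nearest to a start. The letters TTTGAA and TTTAAA, both forms of the CHR, were searched on both strands, and so were CCAAT and the E2F letters TTCCCGC. Matches of the CHR letters and of CCAAT did not overlap. TTTGAA or TTTAAA stood in the windows of 27 of 37 members (73%) and of 25.5% of all 27305 genes in the table. The table's genes were not limited to those measured on the arrays. CCAAT stood in 27 (73%), against 37% of all genes, and at least 2 CCAAT matches stood in 15 (40.5%), against 11.5%. CCAAT together with TTTGAA or TTTAAA stood in 22 members (59.5%), against 9.29% of all genes. TTCCCGC stood in 2 members (5.41%), NCAPG and SPC25, against 6.66% of all genes. Within the members, the 25 TTTGAA matches had a median first base at -35 from the start, and 17 of them began within 100 bases of it. The 15 TTTAAA matches lay further away, with a median at -88, and 8 began within 100 bases. The 54 CCAAT matches had their median at -72, and 40 began within 100 bases. The choice of window matters for the CHR letters. With the 50 bases after the start read as well, TTTGAA or TTTAAA stood in 33 of 37 members (89.2%), against 27.9% of all genes. These are matches of letters, which describe the windows and are not evidence of binding.

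The windows of 6 members are shown: KIF14 and INCENP, with the largest and the smallest fall under PLX4032 in scrambled cells, BUB1B, with the largest fall on MITF knockdown, and CCNB1, PLK1 and CDC20, whose cell cycle promoters are well known. Each is written 5′ to 3′ along the gene's own strand in GRCh38.p14, from base -250 to base -1, and capitals mark matches of the searched letters on either strand. KIF14 lies at chr1:200620752-200621001 on the minus strand. The others lie on the plus strand, INCENP at chr11:62123761-62124010, BUB1B at chr15:40160819-40161068, CCNB1 at chr5:69166900-69167149, PLK1 at chr16:23678639-23678888 and CDC20 at chr1:43358731-43358980.
KIF14: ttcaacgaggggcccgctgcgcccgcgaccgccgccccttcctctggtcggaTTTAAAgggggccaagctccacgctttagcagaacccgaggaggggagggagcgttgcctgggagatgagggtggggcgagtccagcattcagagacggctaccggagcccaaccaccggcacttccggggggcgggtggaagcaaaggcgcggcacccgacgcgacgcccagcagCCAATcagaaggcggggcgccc
INCENP: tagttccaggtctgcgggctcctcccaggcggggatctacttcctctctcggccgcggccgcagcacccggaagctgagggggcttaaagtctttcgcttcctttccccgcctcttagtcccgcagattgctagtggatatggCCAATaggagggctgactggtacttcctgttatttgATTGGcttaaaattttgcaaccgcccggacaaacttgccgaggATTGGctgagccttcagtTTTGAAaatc
BUB1B: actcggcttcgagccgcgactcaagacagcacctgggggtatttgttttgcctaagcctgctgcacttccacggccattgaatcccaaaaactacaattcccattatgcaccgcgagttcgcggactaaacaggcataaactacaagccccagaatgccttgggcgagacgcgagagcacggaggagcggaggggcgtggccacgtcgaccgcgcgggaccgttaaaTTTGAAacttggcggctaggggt
CCNB1: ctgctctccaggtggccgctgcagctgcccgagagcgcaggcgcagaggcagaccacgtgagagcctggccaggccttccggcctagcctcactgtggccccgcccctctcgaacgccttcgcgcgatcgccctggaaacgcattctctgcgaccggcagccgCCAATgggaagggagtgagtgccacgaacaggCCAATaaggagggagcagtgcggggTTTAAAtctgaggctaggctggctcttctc
PLK1: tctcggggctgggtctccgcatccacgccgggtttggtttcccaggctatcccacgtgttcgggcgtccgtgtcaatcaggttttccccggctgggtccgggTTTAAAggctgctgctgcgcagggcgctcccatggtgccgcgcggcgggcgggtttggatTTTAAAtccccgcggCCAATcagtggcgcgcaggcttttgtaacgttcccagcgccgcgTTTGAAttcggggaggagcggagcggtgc
CDC20: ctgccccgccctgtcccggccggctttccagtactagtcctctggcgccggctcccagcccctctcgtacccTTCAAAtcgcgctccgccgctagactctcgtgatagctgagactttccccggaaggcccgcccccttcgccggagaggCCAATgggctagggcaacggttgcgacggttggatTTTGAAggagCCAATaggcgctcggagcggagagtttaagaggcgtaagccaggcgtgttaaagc
The KIF14 window holds 1 TTTAAA and 1 CCAAT, and the INCENP window holds 1 TTTGAA and 3 CCAAT. BUB1B has 1 TTTGAA close to its start and no CCAAT. PLK1 has the most CHR letters of those shown, with 1 TTTGAA and 2 TTTAAA.

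The members' changes were set beside these letters. Under PLX4032 in scrambled cells, the median change was -1.12 (log2) in the 27 members with TTTGAA or TTTAAA and -1.27 in the 10 without. On MITF knockdown in DMSO the medians were -0.90 with these letters and -1.02 without, and with both perturbations they were -1.82 and -1.95. In each of these 3 comparisons the median fall was larger in the members without the letters. That split covers only the 250 bases before the start. Some of the 10 held the letters once the 50 bases after the start were read too. Under PLX4032 in hairpin cells the medians were -0.86 with the letters and -0.93 without. On knockdown in PLX4032 the order was reversed, at -0.63 with and -0.62 without. No test was made of these differences, since members are not replicates.

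The first comparison asks what loss of MITF alone did to the mitotic genes. All 43 measured members fell on MITF knockdown in DMSO, with a median change of -0.94 (log2; all 18404 genes, median 0.020). The call is limma's test across all genes with a Benjamini-Hochberg adjusted p under 0.05, and 18.8% of all genes were called lower. The falls ran from -0.50 for SMC4 to -1.64 for BUB1B, and 17 members fell at least 2-fold. In bulk RNA, fewer cells in mitosis and less RNA of these genes per cell cannot be told apart.

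PLX4032 alone, in cells with the scrambled hairpin, also lowered the whole list. All 43 measured members fell, with a median change of -1.16 (all genes, median 0.051), where 16.8% of all genes were called lower. The falls ran from -0.30 for INCENP to -1.69 for KIF14, and 33 members fell at least 2-fold. The melanocytic markers moved the other way under PLX4032, with 6 of 7 called higher (all genes called higher, 17.3%). On knockdown, 4 of these 7 markers were called lower (all genes, 18.8%) and 1 higher (all genes, 14.4%). The 4 include MITF, the hairpin's own target, whose fall there is only the check of the hairpin. MITF is also among the 6 called higher under PLX4032. The mean level of the 7 markers, MITF included, lay at 10.03 to 10.06 on the scrambled DMSO arrays and 10.91 to 11.08 with PLX4032 alone. It lay at 9.28 to 9.32 on the hairpin DMSO arrays and at 10.30 on both hairpin PLX4032 arrays. The part of these markers in the result was not tested.

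With both perturbations against neither, all 43 fell, with a median change of -1.82 (all genes, median 0.083), and 21.5% of all genes were called lower. The falls ran from -0.73 for KIF20A to -2.37 ± 0.12 for MAD2L1, which is 5.18-fold. A fall of at least 2-fold was seen in 42 members and of at least 4-fold in 14. The median level of the 43 members was 9.37 and 9.59 on the scrambled DMSO arrays, 8.35 and 8.38 with PLX4032, 8.47 and 8.52 with the hairpin, and 7.73 and 7.82 with both. The pooled SD between replicate arrays had a median of 0.0938 over the members and 0.0914 over all genes.

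**Figure D1:**
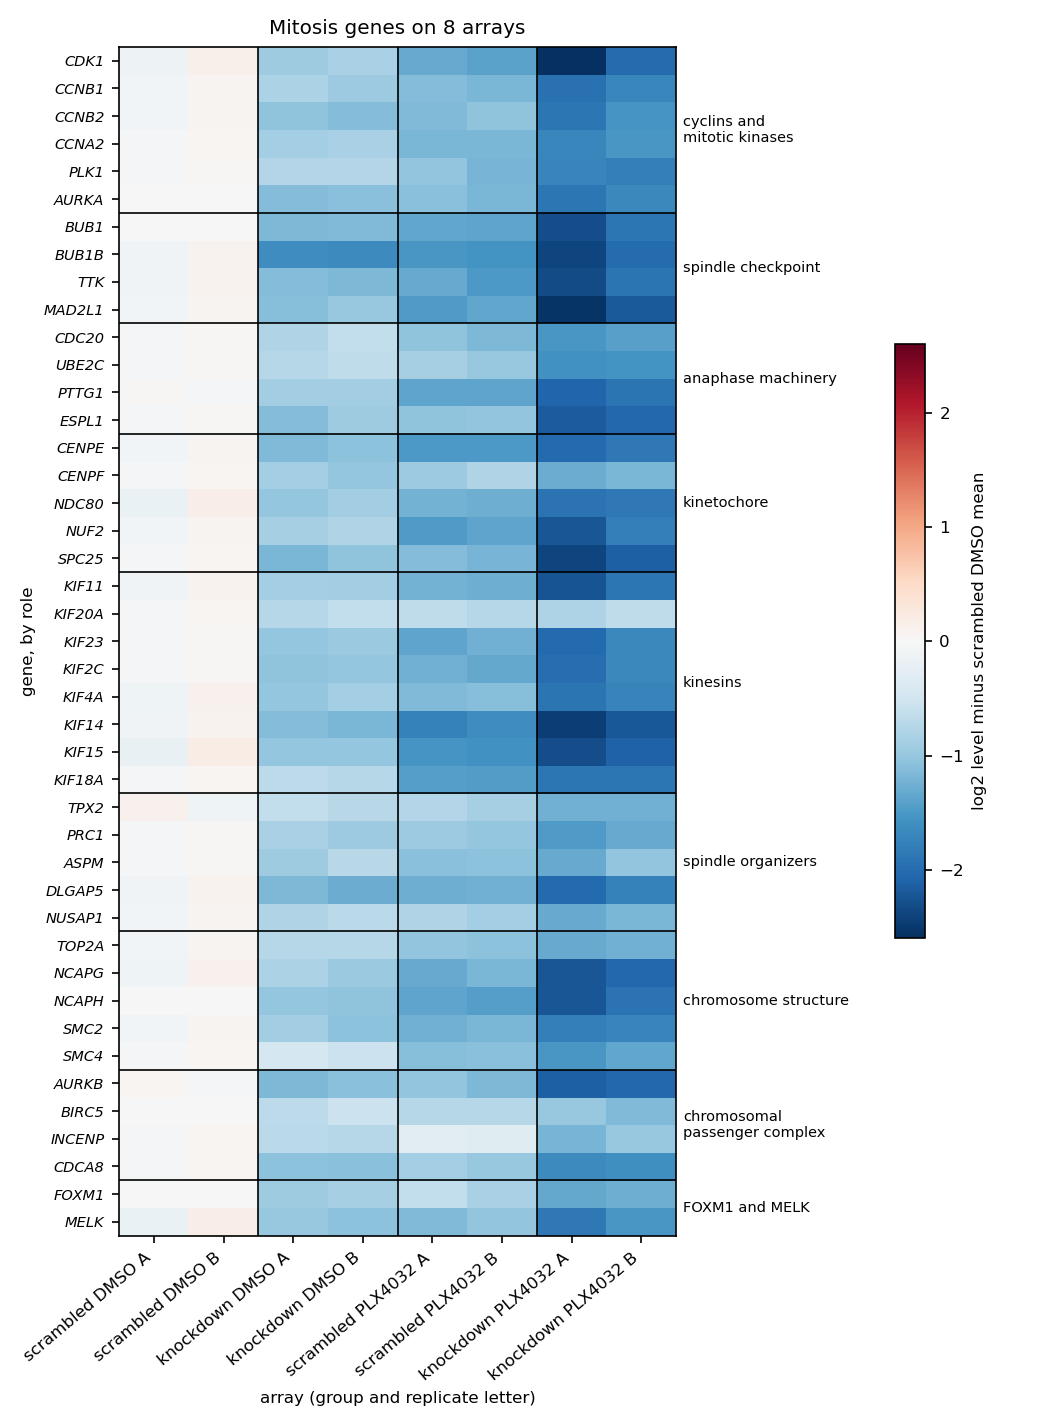
Log2 levels of the 43 measured mitosis and spindle genes (rows, by role) on each of the 8 arrays (columns, by group), shown as the difference from each gene's mean over the scrambled DMSO arrays. The members lie lowest on the arrays with both perturbations, where their median falls from the 9.37 and 9.59 of the scrambled DMSO arrays to 7.73 and 7.82.

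The cyclins and mitotic kinases carry the cell into mitosis, and their 6 members had median changes of -0.89 on knockdown, -1.15 under PLX4032 and -1.77 with both. CDK1, the kinase that starts mitosis, read 9.13 and 9.41 in scrambled DMSO cells, 7.96 and 7.88 with PLX4032 alone, 8.33 and 8.42 with the hairpin alone and 6.59 and 7.27 with both (array A, then B). The 4 groups did not overlap, and the arrays with both perturbations differed most from each other. The change of CDK1 was -0.89 ± 0.18 on knockdown, -1.35 ± 0.18 under PLX4032 and -2.34 ± 0.18 with both. CCNB2, a B-type cyclin that activates CDK1, read 10.21 and 10.35 in scrambled DMSO cells, 9.13 and 9.22 with PLX4032 alone, 9.23 and 9.14 with the hairpin alone and 8.40 and 8.75 with both. Scrambled DMSO arrays were highest, arrays with both perturbations lowest, and the single perturbations overlapped. Its change was -1.10 ± 0.11 under PLX4032. AURKA, the kinase of centrosomes and spindle poles, read 10.35 and 10.32 in scrambled DMSO cells, 9.25 and 9.14 with PLX4032 alone, 9.21 and 9.25 with the hairpin alone and 8.46 and 8.66 with both, with the same order and the same overlap. AURKA fell by 1.11 ± 0.091 on knockdown, the largest fall of this role there, and by 1.14 ± 0.091 under PLX4032. The other 3 members were CCNB1 (-0.89 and -1.16), CCNA2, the cyclin of S phase and early mitosis (-0.86 and -1.18), and PLK1, a kinase of mitotic entry and spindle poles (-0.76 and -1.12), on knockdown and under PLX4032.

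The 4 spindle checkpoint genes had medians of -1.15 on knockdown, -1.40 under PLX4032 and -2.16 with both, and each fell at least 2-fold in all 3 comparisons. BUB1B encodes BUBR1, the checkpoint protein that holds back CDC20. It read 9.68 and 9.88 in scrambled DMSO cells, 8.27 and 8.23 with PLX4032 alone, 8.16 and 8.13 with the hairpin alone and 7.40 and 7.77 with both. The scrambled DMSO arrays stood more than 1 log2 unit above all others, and the single perturbations lay close together without overlapping. BUB1B fell by 1.64 ± 0.12 on knockdown (adjusted p 2.56e-06, limma), the largest fall of any member, and by 1.53 ± 0.12 under PLX4032 (adjusted p 3.11e-06). BUB1, the kinase that recruits checkpoint proteins to kinetochores, read 10.09 and 10.06 in scrambled DMSO cells, 8.73 and 8.69 with PLX4032 alone, 8.90 and 8.92 with the hairpin alone and 7.78 and 8.20 with both. The groups did not overlap, and the changes of BUB1 were -1.16 ± 0.12 and -1.36 ± 0.12. TTK, the MPS1 kinase that starts checkpoint signalling, changed by -1.14 and -1.40. MAD2L1, the checkpoint's MAD2 subunit, changed by -1.04 and -1.41.

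Genes of the anaphase machinery had median changes of -0.81, -1.08 and -1.77 on knockdown, under PLX4032 and with both. PTTG1 encodes securin, the inhibitor of separase, and its probes may also read close relatives of the gene. It read 9.87 and 9.81 in scrambled DMSO cells, 8.48 and 8.47 with PLX4032 alone, 8.94 and 8.94 with the hairpin alone and 7.78 and 7.95 with both. No group overlapped another, and PTTG1 fell by 1.37 ± 0.085 under PLX4032, the most in this role. ESPL1 encodes separase, the protease that opens cohesin, and read 8.47 and 8.54 in scrambled DMSO cells, 7.45 and 7.47 with PLX4032 alone, 7.38 and 7.57 with the hairpin alone and 6.33 and 6.47 with both. The single perturbations overlapped, and ESPL1 changed by -1.03 ± 0.092 on knockdown, -1.04 ± 0.092 under PLX4032 and -2.10 ± 0.092 with both. UBE2C, the ubiquitin-conjugating enzyme of the anaphase-promoting complex, read 9.17 and 9.24 in scrambled DMSO cells, 8.35 and 8.22 with PLX4032 alone, 8.46 and 8.54 with the hairpin alone and 7.63 and 7.66 with both. Its groups did not overlap, and its fall under PLX4032, -0.92 ± 0.084, was the smallest of this role. CDC20, the activator of that complex, changed by -0.71 and -1.11.

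At the kinetochore, the 5 measured members had median changes of -0.96, -1.25 and -1.94. CENPE, a kinesin that carries chromosomes to the spindle equator, read 8.20 and 8.33 in scrambled DMSO cells, 6.78 and 6.77 with PLX4032 alone, 7.11 and 7.19 with the hairpin alone and 6.24 and 6.40 with both. Every group stood apart, and CENPE changed by -1.11 ± 0.089 on knockdown and -1.49 ± 0.089 under PLX4032. CENPF, a large protein of the outer kinetochore, read 9.97 and 10.09 in scrambled DMSO cells, 9.08 and 9.26 with PLX4032 alone, 9.15 and 9.03 with the hairpin alone and 8.74 and 8.85 with both. The single perturbations overlapped, and the arrays with both lay only a little below them. Its change under PLX4032, -0.86 ± 0.095, was the smallest of the role. NDC80, NUF2 and SPC25 are subunits of the NDC80 complex, which grips microtubules, and changed by -1.25, -1.42 and -1.17 under PLX4032.

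The 8 kinesins are motors that build the spindle, align chromosomes or complete cytokinesis, and had median changes of -0.97, -1.30 and -1.86. KIF14, a motor of cytokinesis, read 8.46 and 8.64 in scrambled DMSO cells, 6.79 and 6.94 with PLX4032 alone, 7.42 and 7.37 with the hairpin alone and 6.10 and 6.34 with both. No groups overlapped, and KIF14 fell by 1.69 ± 0.10 under PLX4032 (adjusted p 6.13e-07, limma), the largest fall of any member there. KIF20A, another motor of cytokinesis, read 10.02 and 10.13 in scrambled DMSO cells, 9.41 and 9.34 with PLX4032 alone, 9.34 and 9.44 with the hairpin alone and 9.28 and 9.42 with both. The scrambled DMSO arrays were high, and the other 6 arrays lay between 9.28 and 9.44 with all 3 groups overlapping. Its change was -0.69 ± 0.089 on knockdown and -0.70 ± 0.089 under PLX4032. The remaining motors fell under PLX4032 by amounts from 1.12 for KIF4A, a chromosome-bound motor whose probes may also read its relative KIF4B, to 1.56 for KIF15, which helps keep spindles bipolar. Between them were KIF11, the motor that separates spindle poles (-1.25), KIF2C, a microtubule depolymerase (-1.29), KIF23, a subunit of centralspindlin (-1.31), and KIF18A, which damps chromosome movement (-1.44).

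The spindle organizers had medians of -0.82, -0.98 and -1.26. TPX2, the activator of AURKA on spindle microtubules, read 10.83 and 10.61 in scrambled DMSO cells, 9.97 and 9.86 with PLX4032 alone, 10.08 and 10.00 with the hairpin alone and 9.46 and 9.48 with both. Its groups did not overlap, and its fall under PLX4032, -0.81 ± 0.094, was the smallest of the role. DLGAP5, which stabilises microtubules near chromosomes, read 9.35 and 9.54 in scrambled DMSO cells, 8.17 and 8.20 with PLX4032 alone, 8.28 and 8.15 with the hairpin alone and 7.43 and 7.69 with both. The single perturbations overlapped, and DLGAP5 changed by -1.23 ± 0.11 on knockdown and -1.26 ± 0.11 under PLX4032, the largest falls of the role. PRC1, the bundler of the central spindle, read 10.27 and 10.33 in scrambled DMSO cells, 9.35 and 9.29 with PLX4032 alone, 9.45 and 9.36 with the hairpin alone and 8.82 and 9.0 with both, with no overlap between groups. ASPM, a protein of spindle poles, read 9.15 and 9.23 in scrambled DMSO cells, 8.10 and 8.12 with PLX4032 alone, 8.27 and 8.46 with the hairpin alone and 7.87 and 8.16 with both. The PLX4032 arrays of the 2 hairpins overlapped, and its change was -0.82 ± 0.11 on knockdown and -1.07 ± 0.11 under PLX4032. NUSAP1, a microtubule-bundling protein, changed by -0.74 and -0.83.

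Chromosome structure was represented by topoisomerase II and condensin, with medians of -0.89, -1.22 and -1.74. NCAPH, a condensin subunit, read 9.95 and 9.96 in scrambled DMSO cells, 8.57 and 8.53 with PLX4032 alone, 8.94 and 8.90 with the hairpin alone and 7.73 and 8.03 with both. Its groups were separate, and it fell most of the 5 under both single perturbations, by 1.03 ± 0.10 and 1.40 ± 0.10. TOP2A, the topoisomerase that untangles sister chromatids, read 10.73 and 10.86 in scrambled DMSO cells, 9.76 and 9.73 with PLX4032 alone, 10.06 and 10.05 with the hairpin alone and 9.48 and 9.54 with both. The arrays with both perturbations lay just below those with PLX4032 alone, without overlap, and the change of TOP2A under PLX4032 was -1.05 ± 0.082. NCAPG, SMC2 and SMC4, the other condensin subunits, changed by -1.25, -1.22 and -1.10 under PLX4032.

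The chromosomal passenger complex corrects faulty attachments and directs cytokinesis, and its 4 genes had median changes of -0.89, -0.84 and -1.36. AURKB, its kinase, read 10.10 and 10.00 in scrambled DMSO cells, 9.03 and 8.88 with PLX4032 alone, 8.89 and 8.97 with the hairpin alone and 7.93 and 8.02 with both. The single perturbations overlapped, and AURKB changed by -1.12 ± 0.089 and -1.10 ± 0.089. INCENP, the scaffold of the complex, read 8.76 and 8.85 in scrambled DMSO cells, 8.53 and 8.49 with PLX4032 alone, 8.10 and 8.07 with the hairpin alone and 7.59 and 7.82 with both. Here the groups did not overlap, but the scrambled PLX4032 arrays lay nearest to the scrambled DMSO arrays. Its fall was 0.72 ± 0.094 on knockdown and 0.30 ± 0.094 under PLX4032, with an adjusted p of 0.0311 (limma) for the latter, which rose to between 0.0502 and 0.141 when any 1 of 5 arrays was left out (scrambled DMSO B, either scrambled PLX4032 array, or either hairpin DMSO array). CDCA8, known as borealin, changed by -1.07 and -0.93. BIRC5, known as survivin, changed by -0.62 and -0.74, and it was the only member with several probe sets. Its dimmer probe set did not follow, at -0.06 and -0.09.

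FOXM1 is a transcription factor that activates mitotic genes, and MELK is a kinase gene that is transcribed with them. FOXM1 read 10.20 and 10.19 in scrambled DMSO cells, 9.55 and 9.34 with PLX4032 alone, 9.28 and 9.33 with the hairpin alone and 8.87 and 8.92 with both. The groups did not overlap, and the changes were -0.89 ± 0.089 on knockdown and -0.75 ± 0.089 under PLX4032. MELK read 9.42 and 9.75 in scrambled DMSO cells, 8.44 and 8.56 with PLX4032 alone, 8.61 and 8.52 with the hairpin alone and 7.73 and 8.08 with both, with overlapping single perturbations. Its changes were -1.02 ± 0.13 and -1.09 ± 0.13.

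**Figure D2:**
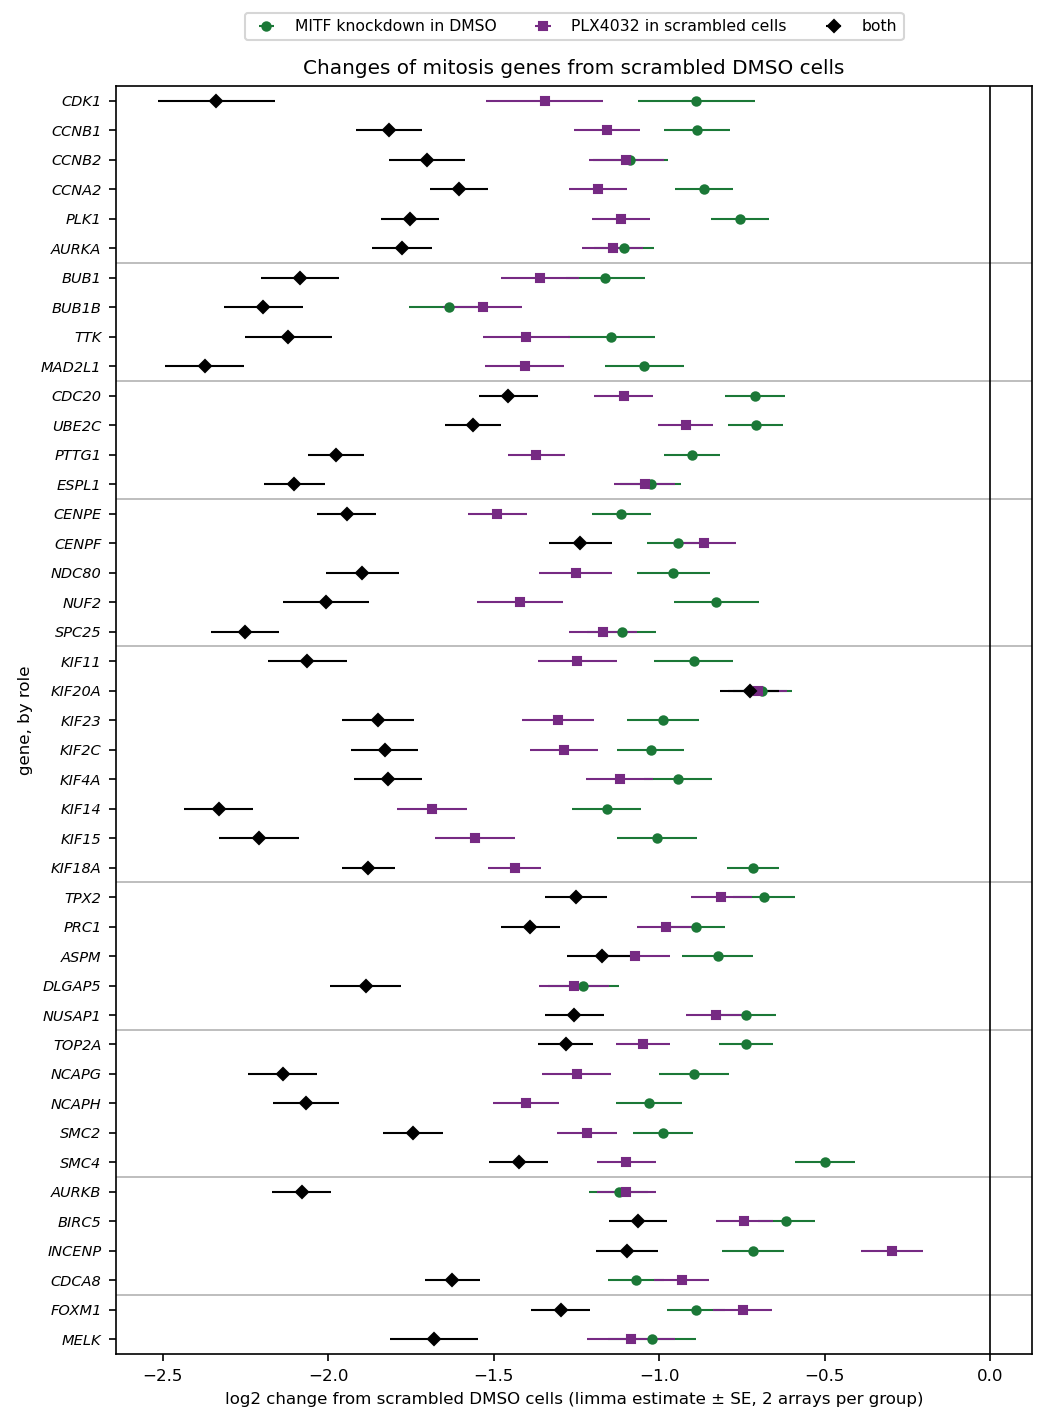
Log2 change of each of the 43 members, by role, on MITF knockdown in DMSO, under PLX4032 in scrambled cells and with both perturbations, with bars for the SE of the limma fit (2 arrays a group). The changes with both lie lowest, from -0.73 for KIF20A to -2.37 for MAD2L1.

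The order of the single perturbations was read from the group means. In 37 of 43 members the mean was lower under PLX4032 alone than on knockdown alone, and in the other 6 (BUB1B, CENPF, AURKB, INCENP, CDCA8 and FOXM1) it was higher. In 26 of 43 members the difference between these neighbours did not pass the test. The direct contrast of scrambled PLX4032 cells against hairpin DMSO cells, added after the data were seen, called 16 members lower (all genes called lower, 14.2%) and 1 higher (all genes, 18.9%), with a median of -0.25 over the members. KIF18A had the largest difference (-0.72, adjusted p 2.84e-05, limma), followed by SMC4 (-0.60) and NUF2 (-0.59). INCENP was the only member called higher under PLX4032 alone, by 0.42 (adjusted p 0.00481, limma). The count of lower members fell to between 8 and 10 when any 1 of the 4 arrays compared was left out.

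The design also asks what each perturbation did in the presence of the other. In hairpin cells, PLX4032 lowered 42 of 43 members, with a median change of -0.85 (all genes, median 0.039, and 15.1% called lower), and 12 members fell at least 2-fold. The exception was KIF20A, at -0.04 with a 95% interval from -0.235 to 0.157 and an adjusted p of 0.798 (limma). When 1 array was left out, 39 to 42 members were called, and the calls of CENPF (without either hairpin DMSO array or hairpin PLX4032 A), ASPM (without hairpin DMSO B or hairpin PLX4032 A) and INCENP (without hairpin DMSO A or hairpin PLX4032 A) were lost. In PLX4032, the hairpin lowered 40 of 43 members, with a median change of -0.63 (all genes, median 0.022, and 15.0% called lower), and 2 members, SPC25 and ESPL1, fell at least 2-fold. TOP2A (-0.24, adjusted p 0.0534), ASPM (-0.10, adjusted p 0.555) and KIF20A (-0.02, adjusted p 0.876) did not pass limma's test there. Leaving out 1 array gave 35 to 41 calls. BIRC5, CDC20, CENPF, MELK, NUF2 and SMC4 each lost the call without at least 1 of the 4 PLX4032 arrays, and TOP2A gained it without either scrambled DMSO array.

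Whether the 2 effects add on the log2 scale was tested as the interaction, the PLX4032 change in hairpin cells minus that in scrambled cells. A positive value means that the fall with both perturbations was smaller than the sum of the single falls. The interaction passed the test in 12 of 43 members, each time positive, against 6.97% of all genes called positive and 4.85% called negative. Its median over the members was 0.35 (all genes, 0.0013), and 40 of 43 values were positive, against 9239 of 18404 over all genes. The median fall with both was -1.82, where the single changes summed to a median of -2.14, and a member's joint change came to a median of 82.6% of its sum, from 52.3% for KIF20A to 108% for INCENP. The scrambled DMSO arrays enter each of these terms.

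BUB1B had the largest interaction, 0.97 ± 0.17 (adjusted p 0.00333, limma). PLX4032 lowered BUB1B by 1.53 in scrambled cells and by 0.56 in hairpin cells. For ASPM these changes were -1.07 and -0.35, and its interaction was 0.73 ± 0.15 (adjusted p 0.00993). For KIF20A they were -0.70 and -0.04, and its interaction was 0.66 ± 0.13 (adjusted p 0.00563). CENPE changed by -1.49 and -0.83, with an interaction of 0.66 ± 0.13 (adjusted p 0.00593). The other 8 were DLGAP5, CENPF, KIF14, TOP2A, PRC1, AURKA, SMC2 and CCNA2, from 0.6 down to 0.442. By role the 12 were 3 of 5 spindle organizers, 2 of 6 cyclins and kinases, 2 of 5 kinetochore genes, 2 of 8 kinesins, 2 of 5 chromosome structure genes and 1 of 4 checkpoint genes. The count fell without any 1 of 6 arrays (scrambled DMSO B, either scrambled PLX4032 array, either hairpin DMSO array, or hairpin PLX4032 B). In those 6 fits fewer of all genes were called too, and the members' share called lay nearer to that of all genes. Without scrambled DMSO B the members' share called in either direction did not exceed that of all genes. Without hairpin PLX4032 A or without scrambled DMSO A the count rose.

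At the other end lay CDK1, INCENP and ESPL1, the 3 members with an interaction below 0. CDK1 had -0.10 ± 0.25, with a 95% interval from -0.657 to 0.449 and an adjusted p of 0.857 (limma). Array A read below array B in 40 of 43 members in hairpin PLX4032 cells and in 36 of 43 in scrambled DMSO cells, against 52.2% and 56.7% of all genes. In scrambled PLX4032 and hairpin DMSO cells it read below in 15 and 23 members. The part of these array differences in the interaction was not tested.

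**Figure D3:**
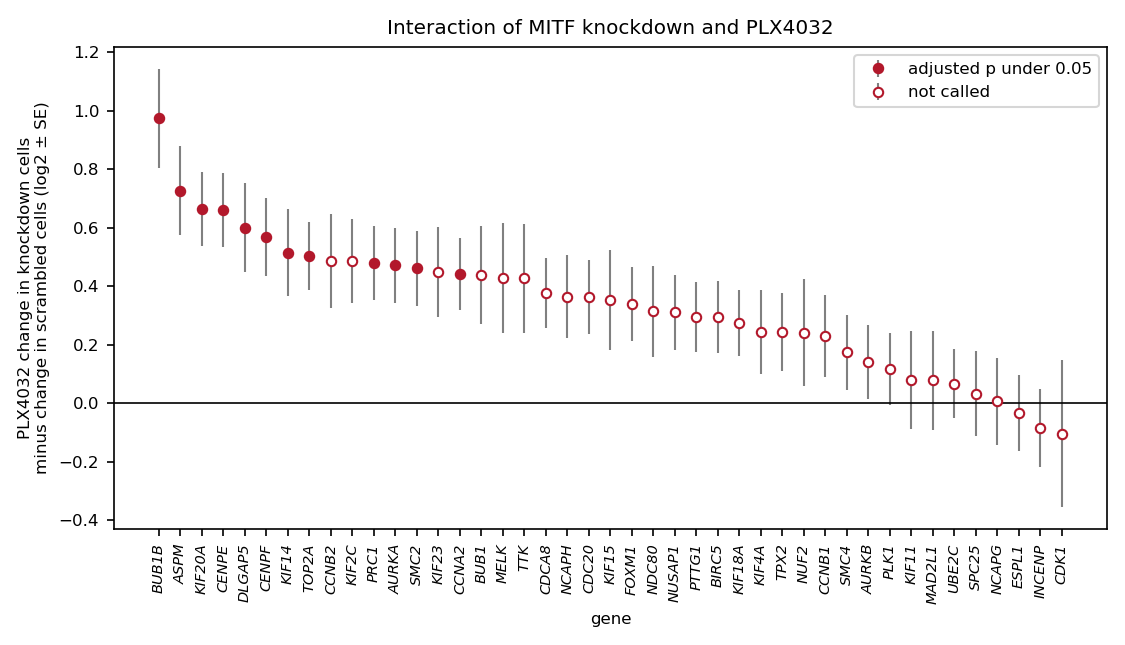
Interaction of each of the 43 members (log2, PLX4032 change in hairpin cells minus that in scrambled cells, with bars for the SE of the limma fit), in descending order, with filled points for the 12 members that passed the test. In 40 of 43 members the point lies above 0, from BUB1B at 0.97 down to NCAPG, and ESPL1, INCENP and CDK1 lie below it.

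Genes of neighbouring pathways, in 6 lists of 138 genes of which 135 were measured, were counted in the same fit, where 18.8% of all genes were called lower on knockdown, 16.8% under PLX4032 and 21.5% with both, and 14.4%, 17.3% and 27.1% were called higher. Of 32 other kinetochore and centromere genes, 30 fell on knockdown and 29 under PLX4032, and the medians were -0.75, -0.92 and, with both, -1.48. ERCC6L, a helicase of stretched anaphase DNA, changed by -1.60 ± 0.12 on knockdown and -1.77 ± 0.12 under PLX4032, and CENPK, a subunit of the inner kinetochore, by -2.72 ± 0.15 with both. Of 27 other spindle and cytokinesis genes, 25 fell on knockdown and 24 under PLX4032, with medians of -0.85 and -0.96. KIF20B, a kinesin of cytokinesis, changed by -1.73 ± 0.12 under PLX4032. NUMA1, the spindle pole protein, and KIF3A, a motor of cilia, went against the list under PLX4032, at 0.23 ± 0.077 and 0.53 ± 0.16.

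Among 25 regulators of mitotic entry and exit, 22 fell on knockdown and 21 under PLX4032, with medians of -0.84 and -0.97. CDC25A, the phosphatase that activates CDKs, changed by -3.0 ± 0.077 with both, PLK4, the kinase of centriole duplication, by -2.49 ± 0.11, and TRIP13, a remodeller of checkpoint proteins, by -2.55 ± 0.096. ARPP19, an inhibitor of the phosphatase PP2A, rose under PLX4032 by 0.30 ± 0.084, and PPP2R2A, a PP2A subunit, rose with both by 0.54 ± 0.084.

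The list of anaphase-promoting complex subunits, which also names the activator FZR1, was counted apart from the mitotic partners CDC20 and UBE2C. Of the 14 genes measured in this list, 6 fell on knockdown, 5 under PLX4032 and 9 with both. The medians were -0.21, -0.16 and -0.29, and no fall reached 2-fold. ANAPC2 rose with both, by 0.29 ± 0.092. CDC20 and UBE2C changed by -1.46 and -1.56 with both, and the difference from the list was not tested. Of 16 cohesin and other condensin genes, 10 fell on knockdown and 12 under PLX4032, with medians of -0.37 and -0.40. CDCA5, known as sororin, changed by -2.48 ± 0.097 with both, ESCO2, the acetyltransferase of cohesin, by -2.10 ± 0.079, and NCAPG2, of condensin II, by -2.09 ± 0.10. The cohesin loaders MAU2 and NIPBL rose with both, by 0.62 ± 0.08 and 0.40 ± 0.081.

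Of 21 DREAM, MuvB and E2F regulators, which are known to act at cell cycle promoters, 13 fell on knockdown and 12 under PLX4032. Their medians were -0.35 and -0.44, and their binding to the members' windows was not measured. MYBL2, the MYB protein that joins MuvB to activate mitotic genes, changed by -2.15 ± 0.09 with both, E2F8, a repressive E2F, by -2.09 ± 0.086, and LIN9, a core MuvB subunit, by -1.59 ± 0.11. E2F5 changed by -1.92 ± 0.11 under PLX4032. LIN37, another MuvB subunit, went the other way, at 0.26 ± 0.081 on knockdown and 0.32 ± 0.081 under PLX4032. Positive interactions passed the test in 10 of 32 kinetochore genes, 10 of 27 spindle genes, 5 of 25 entry and exit regulators, 6 of 21 of these regulators and 2 of 16 cohesin and condensin genes, against 6.97% of all genes. In the 14 measured genes of the anaphase-promoting complex list limma called 0, with 1 at an unadjusted p under 0.05.

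**Figure D4:**
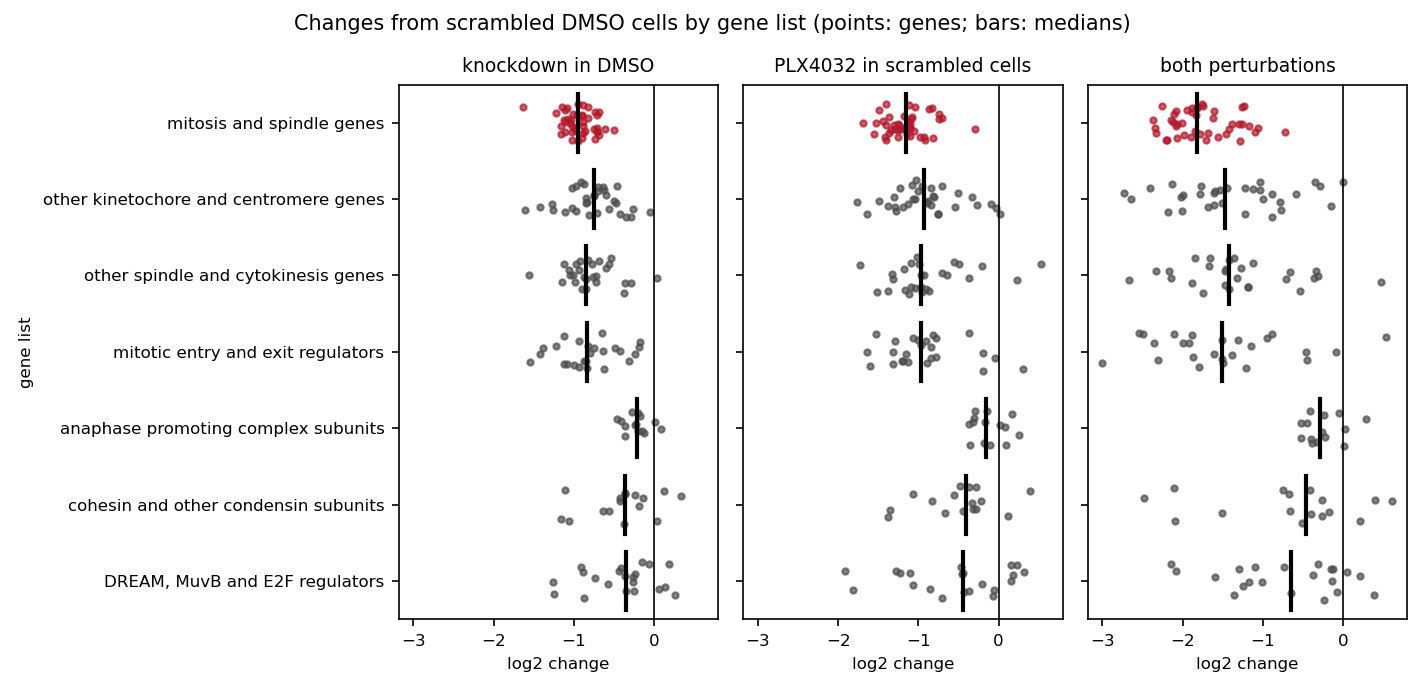
Log2 changes of the genes of the 6 pathway lists and of the 43 members on MITF knockdown, under PLX4032 in scrambled cells and with both perturbations, 1 point a gene with the list's median marked. The members' medians are -0.94, -1.16 and -1.82, and those of the anaphase-promoting complex subunits -0.21, -0.16 and -0.29.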

How the data were processed

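Total RNA of 8 samples was measured on Affymetrix Human Gene 1.0 ST arrays. The deposited values are log2 expression levels per probe set, made by the authors with RMA per the submitters' processing notes, with background correction, quantile normalization and probe summary in that method; neither its version nor the genome build is stated in the sources used here. The scanner intensities were not used here. The table holds 32321 probe sets with values from 2.1 to 13.5. Platform annotation of 2016 gave 19158 probe sets 1 symbol, 1388 several and 11775 no symbol, and 19128 of the first were matched by Entrez ID with 0 symbols changed. Per gene the probe set with the highest mean was kept, which left 18404 genes.

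One linear model with the 4 groups was fitted to all genes with limma 3.58.1 in R 4.3.3 (lmFit, eBayes, 4 residual and 6.73 prior degrees of freedom), and p-values were adjusted by Benjamini-Hochberg over all genes of each comparison, with a threshold of 0.05. The script was tested on simulated data. Log2 differences are given with the SE of the fit. Arrays have no read depth, and their number limits the precision. No 2 arrays held identical values. The labels do not say whether the letters A and B pair the groups, and the main fit did not use them as pairs. The differences A minus B correlated at 0.329 between scrambled DMSO and hairpin PLX4032 cells. Between the other pairs of groups they correlated at -0.094 to -0.0065.

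The members, the 6 pathway lists and the marker lists were chosen with earlier results of these data known, so the lists are not independent evidence. All members may be named. Levels on all arrays are given within each of 9 roles for the members with the largest and the smallest change under PLX4032 in scrambled cells and with the largest fall on knockdown, and for up to 10 members called in the interaction. Of each pathway list, at most the 3 largest called changes of a comparison and members called against the list are named. Promoter letters were read in Python 3.11.15 from RefSeq's table for GRCh38.p14, and 6 measured members had no entry matched there. Alternatives were repeated quantile normalization, median centring, other probe set rules, a filter on dim genes, an intensity trend with a robust prior, the compared groups alone, a replicate block, a fold threshold of 1.5 and each array left out.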

Additional observations from a re-analysis of the deposited data

Results flagged for a closer look

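The PLX4032 change differed between hairpin and scrambled cells in 12 members by limma's test of the difference itself, the interaction term adjusted over all genes (n = 2 arrays a group). In each the fall under PLX4032 was smaller in hairpin cells. BUB1B, the BUBR1 checkpoint gene, differed by 0.97 ± 0.17, ASPM of the spindle poles by 0.73 ± 0.15, the cytokinesis kinesin KIF20A by 0.66 ± 0.13 and the kinetochore motor CENPE by 0.66 ± 0.13 (log2, SE). DLGAP5 differed by 0.60 ± 0.15, CENPF by 0.57 ± 0.13, KIF14 by 0.51 ± 0.15 and TOP2A by 0.50 ± 0.12. PRC1 differed by 0.48 ± 0.13, AURKA by 0.47 ± 0.13, SMC2 by 0.46 ± 0.13 and CCNA2 by 0.44 ± 0.12. Over the 15 alternatives, BUB1B, KIF20A and CENPE were called in 15, with adjusted p up to 0.0217, 0.0334 and 0.0342, and ASPM in 14. CENPF was called in 11, TOP2A in 10, DLGAP5 and PRC1 in 9, CCNA2 in 8, AURKA and SMC2 in 7 and KIF14 in 6.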

How the results depend on the processing

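Arrays in pairs limit these results. Among the members whose array levels are given, no alternative turned the direction of a called change. The other members were not compared singly. Of the counts of calls, 222 values over the alternatives stayed within 1.5 times the main count and 14 were lower. The 222 include many main counts of 0 that stayed 0, which say little about robustness. They also include a rise from 12 to 18 positive interactions. With a fold threshold of 1.5 as well, 26 members were lower on knockdown in PLX4032 (40 without it), 5 had a positive interaction (12), and in scrambled PLX4032 against hairpin DMSO cells, a contrast chosen after seeing the data, 3 were lower (16) and 0 higher (1). Leaving out 1 array gave 4 to 18 positive interactions and 8 to 19 lower members in that contrast. The interaction count was 9 with median centring, 10 with repeated quantile normalization, 17 without the dimmest 40% of genes and 18 with the intensity trend. Among the members whose array levels are given, values that changed sign were all uncalled. KIF20A on knockdown in PLX4032 became 0.000145 with repeated quantile normalization. Without 1 array, KIF20A ran from -0.111 to 0.0327 under PLX4032 in hairpin cells and from -0.0956 to 0.0476 on knockdown in PLX4032, where ASPM ran from -0.241 to 0.0462. The interaction ran from -0.443 to 0.235 for CDK1, from -0.127 to 0.0615 for ESPL1 and from -0.204 to 0.0343 for INCENP. Whether the letters A and B pair the groups is not known. A replicate block left 12 positive interactions and moved no other count of the planned comparisons. In the added contrast it gave 19 calls (17). The mean of both BIRC5 probe sets ended its calls in PLX4032 in hairpin cells and on knockdown in PLX4032. The cause of these shifts was not tested.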
